A study of Mus musculus with 6 samples.

Results

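The miRNAs described here are those of the mouse hairpins miR-101a and miR-101b, in primary mesangial cells that were left untreated or given transforming growth factor β1 (TGF-β1). The hairpins gave 4 of the 778 mature miRNAs in the table, namely the guide strands mmu-miR-101a-3p and mmu-miR-101b-3p and their passenger arms miR-101a-5p and miR-101b-5p. They were selected on their measured values in this same comparison of TGF-b1 with Control, so their levels and changes are given as a description without a test. Of the 4 arms, the 2 guides were among the 408 miRNAs with enough reads to be tested, and the 2 passenger arms were not.

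Mesangial cells hold the capillary loops of the glomerulus, the filter of the kidney, together, and TGF-β1 is the cytokine best known for driving the deposition of scar matrix there. All cells grew in 25.5 mM glucose and 20% serum and were used at passages 3 to 6. The Control group had no cytokine, and the TGF-b1 group was kept for 72 h with the cytokine at 10 ng/ml. Each group has 3 libraries. Nothing in the labels says whether the libraries of a group came from separate cultures or animals, so p-values and SDs measure only the spread between these libraries.

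A miRNA hairpin is cut into a duplex, of which the guide strand is kept and loaded into the silencing complex while the passenger strand is mostly discarded. The seed, bases 2 to 8 of the guide, pairs with target mRNAs, usually in their 3′UTR. The miR-101 guides are known for repressing EZH2, the methyltransferase that places the repressive H3K27me3 mark on histone H3. The study measured that mark in the same system and proposes that its level fell after TGF-β1. A link between that mark and the miR-101 guides was not tested here.

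The sequences below are shown because the comparison of the guides rests on how alike they are. They are the mature strands of RefSeq (GRCm38.p6), written 5′ to 3′ with the annotated seed, bases 2 to 8, in capitals. The table was made against miRBase version 17, whose sequences were not used here.
mmu-miR-101a-3p: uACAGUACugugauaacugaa
mmu-miR-101b-3p: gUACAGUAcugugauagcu
mmu-miR-101c: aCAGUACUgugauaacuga
mmu-miR-144-3p: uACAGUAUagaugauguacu

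The annotated miR-101b-3p starts 1 base before miR-101a-3p, so the seeds are the same bases read 1 position apart. Over the 18 bases that overlap, 17 were identical and 1 differed, A16G, counted from 1 at the 5′ end of miR-101a-3p. That base, far from the seed, stands in capitals in the next pair of lines.
mmu-miR-101a-3p: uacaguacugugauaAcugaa
mmu-miR-101b-3p: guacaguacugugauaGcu
The annotated miR-101c lies wholly inside miR-101a-3p, with 19 identical bases and no difference. Among 1679 mature mouse names in RefSeq, only miR-144-3p shared bases 2 to 7 with miR-101a-3p, and none shared bases 2 to 8. The run ACAGUAC at any position was held by 4 names, the 3 miR-101 miRNAs and miR-503-5p.

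The hairpins came from separate places in the genome (NCBIM37, GENCODE vM1). Mir101a is a minus-strand hairpin of chromosome 4 (start 101019550, end 101019632) within an exon of the noncoding RNA E130102H24Rik of the same strand. The nearest other annotated miRNA gene was 1695029 bp away. Mir101b is a plus-strand hairpin of chromosome 19 (start 29209769, end 29209865) within an intron of the protein-coding gene Rcl1, which is transcribed from the same strand, with the nearest other miRNA gene 1126066 bp away. Neither hairpin therefore had a close annotated miRNA neighbour, and each had its own host gene.

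Levels are given in RPM, that is, reads of each miRNA for every 1000000 reads in its library. Mature miRNAs are of near-equal length, so no length scaling was used. How evenly different miRNAs were captured in the libraries was not tested. Ratios between miRNAs or arms are therefore ratios of reads and may differ from those in the cells. The libraries held 16478281 to 17623671 reads in Control and 17086815 to 20169254 in TGF-b1, so 1 read was worth 0.0496 to 0.0607 RPM. The share of reads outside the listed miRNAs was 20.2% to 20.5% in Control and 26.9% to 28.4% in TGF-b1, and the median log2 change over the 408 tested miRNAs was -0.17. That shift became -0.03 when libraries were scaled by trimmed means (TMM), so the changes below are read against it.

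MiR-101a-3p was lower in every TGF-b1 library than in any Control library. Its level was 489.1, 450.1 and 431.4 RPM in Control replicates 1 to 3, from 8060, 7509 and 7603 reads. In TGF-b1 it was 147.5, 110.2 and 106.0 RPM, from 2975, 1975 and 1812 reads. Even the highest TGF-b1 library was well below the lowest Control library, by a factor of 2.92. The mean went from 456.9 ± 29.4 to 121.3 ± 22.8 RPM (SD, n = 3 each), which is 3.77-fold or 73.5% lower. On the scale of log2(RPM + 1) the difference was -1.92 ± 0.14 (SE). With TMM scaling the difference was -1.71. By level the guide stood at ranks 50 to 52 of the 778 miRNAs in Control and at ranks 67 to 75 in TGF-b1.

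MiR-101b-3p, the guide with more reads, was also lower after TGF-β1 but by less. Its level was 2615, 2240 and 2268 RPM in Control, from 43091, 37371 and 39967 reads. In TGF-b1 it was 1849, 1069 and 1040 RPM, from 37286, 19150 and 17776 reads. The groups again did not overlap, yet TGF-b1 replicate 1 was near the Control range, at 1.21-fold below the lowest Control library. The mean went from 2374 ± 208.9 to 1319 ± 458.6 RPM (SD, n = 3 each), 1.80-fold or 44.4% lower, and the log2 difference was -0.90 ± 0.21 (SE). Without TGF-b1 replicate 1 the difference was -1.17, the mean of the remaining TGF-b1 libraries was 1055 RPM, and the TGF-b1 level was 0.444 of the Control level in place of 0.556. With TMM scaling it was -0.69. The guide stood at ranks 21 to 23 in Control and 26 to 31 in TGF-b1.

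**Figure D1:**
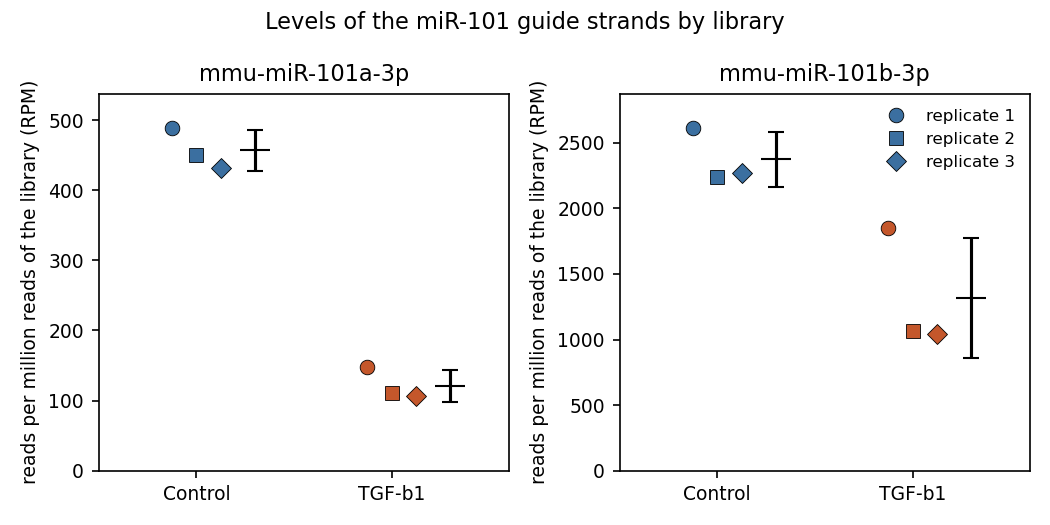
Levels of the miR-101 guides in RPM by library, with a linear axis from 0 in each panel; points are libraries and the bar to their right is the mean and SD of 3. The TGF-b1 libraries sit between 106.0 and 147.5 RPM for miR-101a-3p and between 1040 and 1849 RPM for miR-101b-3p, below all Control libraries in both panels, with TGF-b1 replicate 1 the highest of its group in each.

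Both guides were thus below the Control range in all TGF-b1 libraries, a pattern held by 147 of the 408 tested miRNAs (36.0%). By log2 change, miR-101a-3p ranked 9 and miR-101b-3p ranked 48 from the largest fall. Of the 408 tested miRNAs, 32 (7.84%) were called lower at a limma adjusted p under 0.05 and a log2 change below -1, and 18 (4.41%) were called higher at a log2 change above 1. Under TMM scaling those counts were 22 and 31. MiR-101a-3p lay past that fold limit and miR-101b-3p just inside it, and since the members were chosen by this contrast, nothing is read from where they fell.

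**Figure D2:**
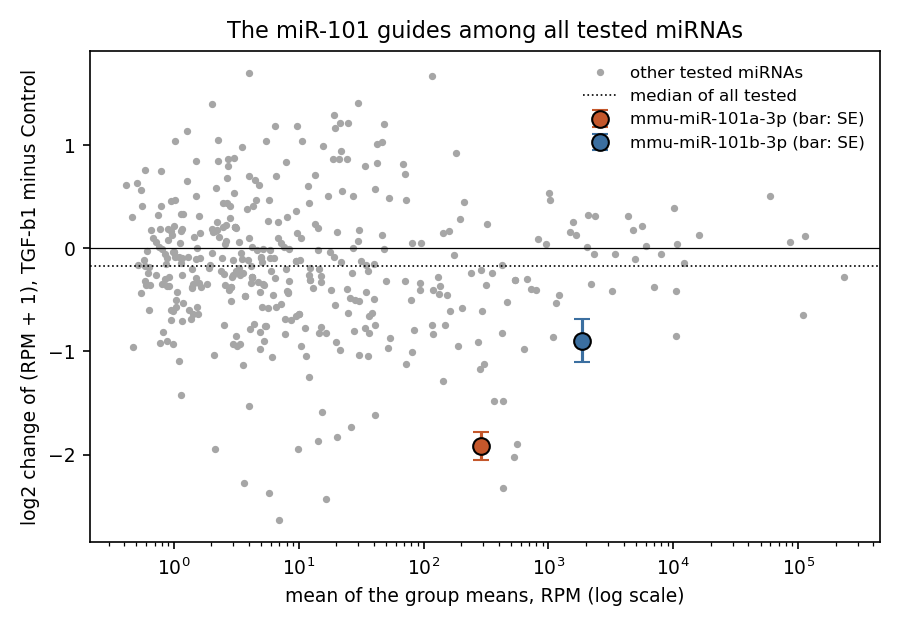
Log2 change of (RPM + 1), TGF-b1 minus Control, against the mean level in RPM on a log axis for the 408 tested miRNAs; bars on the miR-101 guides are SEs and the dotted line is the median of all tested. The guides stand at -1.92 and -0.90, below the median of -0.17, with miR-101b-3p at the higher level.

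The spread between replicates can be set beside the error that counting alone would give. The coefficient of variation of miR-101a-3p was 6.45% in Control and 18.8% in TGF-b1, where counting alone would give at most 1.15% and 2.35%. That of miR-101b-3p was 8.80% and 34.8%, against at most 0.517% and 0.750% from counting. The replicate spread of both guides was larger than counting error in each group, and TGF-b1 replicate 1 stood apart from the other TGF-b1 libraries. In that library miR-101a-3p was 1.36 times and miR-101b-3p 1.75 times the mean of replicates 2 and 3. For the 179 miRNAs whose mean reached 10 RPM, the median log2 excess of replicate 1 over that mean was 0.036. It was 0.444 for miR-101a-3p, a value reached by 21 of the miRNAs including itself, and 0.809 for miR-101b-3p, reached by 9. As far below that mean were 5 and 3 miRNAs. Replicate 1 was also the deepest library of the 6, and the part of its depth in these values was not tested.

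The balance between the guides moved as well. In Control there were 5.35, 4.98 and 5.26 reads of miR-101b-3p for each read of miR-101a-3p. In TGF-b1 there were 12.5, 9.70 and 9.81. The ratio was therefore tight in Control, higher in every TGF-b1 library, and most extreme in the TGF-b1 library where both guides were highest. In Control its mean was 5.19 ± 0.193, against 10.7 ± 1.61 after TGF-β1 (SD, n = 3 each). As the difference of log2(RPM + 1), the miR-101a-3p to miR-101b-3p ratio changed by -1.02 ± 0.13 (SE), and by -0.90 without TGF-b1 replicate 1. A ratio within a library is the same under any scaling of whole libraries, apart from the pseudocount. Since the rule used these values, the difference is a description.

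**Figure D3:**
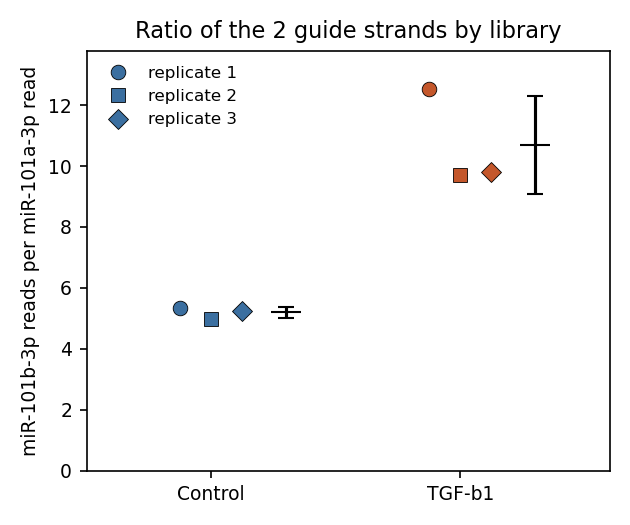
Reads of miR-101b-3p per read of miR-101a-3p by library on a linear axis from 0; points are libraries and the bar is the mean and SD of 3. The Control libraries lie between 4.98 and 5.35 and the TGF-b1 libraries between 9.70 and 12.5.

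In Control 83.8% ± 0.510 of the reads of both guides were miR-101b-3p, against 91.3% ± 1.10 after TGF-β1 (SD, n = 3 each). Summed, the guides went from 2831 ± 236.4 to 1441 ± 481.4 RPM, to 0.509 of the Control level, with a log2 difference of -1.02 ± 0.27 (SE). The summed level followed miR-101b-3p, which supplied most of it. How reads that match both guides were treated is not given in the sources used here. If each miR-101a-3p read had been counted for miR-101b-3p too, the miR-101b-3p reads left would go from 1917.5 ± 182.0 to 1198 ± 435.9 RPM (SD, n = 3 each). The log2 difference would be -0.73 ± 0.29 (SE).

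The passenger arms were almost absent. A single read of miR-101a-5p was found in Control replicate 1 and 2 reads of miR-101b-5p in Control replicate 3, with 0 reads of either in the other libraries. In Control, over 3 libraries, there were 23172 guide reads for 1 passenger read of miR-101a, a ratio with a 95% counting interval of 4159 to 915250. For miR-101b there were 120429 guide reads for 2 passenger reads, a ratio of 60214 with an interval of 16669 to 497210. In TGF-b1, where 0 passenger reads allow up to 3 over the group, the guides had at least 2254-fold more reads for miR-101a and at least 24737-fold more for miR-101b. Copies made by PCR are not separate molecules, so these intervals and bounds reflect counting error alone. Both hairpins thus gave nearly all of their reads from the 3p arm, and a change in the choice of arm was not detectable at this depth. The related miR-101c had 4, 2 and 1 reads in the Control libraries and 0 in TGF-b1, and miR-144-3p, best known from red blood cells, had 1 read in TGF-b1 replicate 1 and 0 elsewhere.

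The profiles over the 6 libraries were compared with those of 178 other miRNAs with a mean of at least 10 RPM, by the root mean square distance between log2(RPM + 1) profiles centred on their own mean. Nearest to miR-101a-3p were miR-351-3p at a distance of 0.090, miR-351-5p at 0.156, miR-27a-3p at 0.226, miR-652-3p at 0.232 and miR-26a-5p at 0.236. MiR-351-3p was 33.0, 34.4 and 29.7 RPM in Control and 9.67, 8.04 and 7.55 RPM in TGF-b1, a difference of like size at a far lower level. Both arms of the miR-351 hairpin were thus the closest to miR-101a-3p. Nearest to miR-101b-3p were miR-199a-5p at 0.10, miR-148b-3p at 0.12, let-7i-5p at 0.133, miR-27b-5p at 0.161 and miR-345-3p at 0.163. MiR-199a-5p was 15.9, 14.3 and 11.9 RPM in Control and 9.52, 5.53 and 5.74 RPM in TGF-b1, so its highest TGF-b1 library was also replicate 1. The guides were not among each other's nearest profiles. MiR-101b-3p came 23rd in order for miR-101a-3p and miR-101a-3p came 100th for miR-101b-3p, at a distance of 0.526. Each profile is centred over both groups, so a distance includes the difference in log2 change and is not separate from the changes above. These distances share the same 6 libraries and are given without a test.

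**Figure D4:**
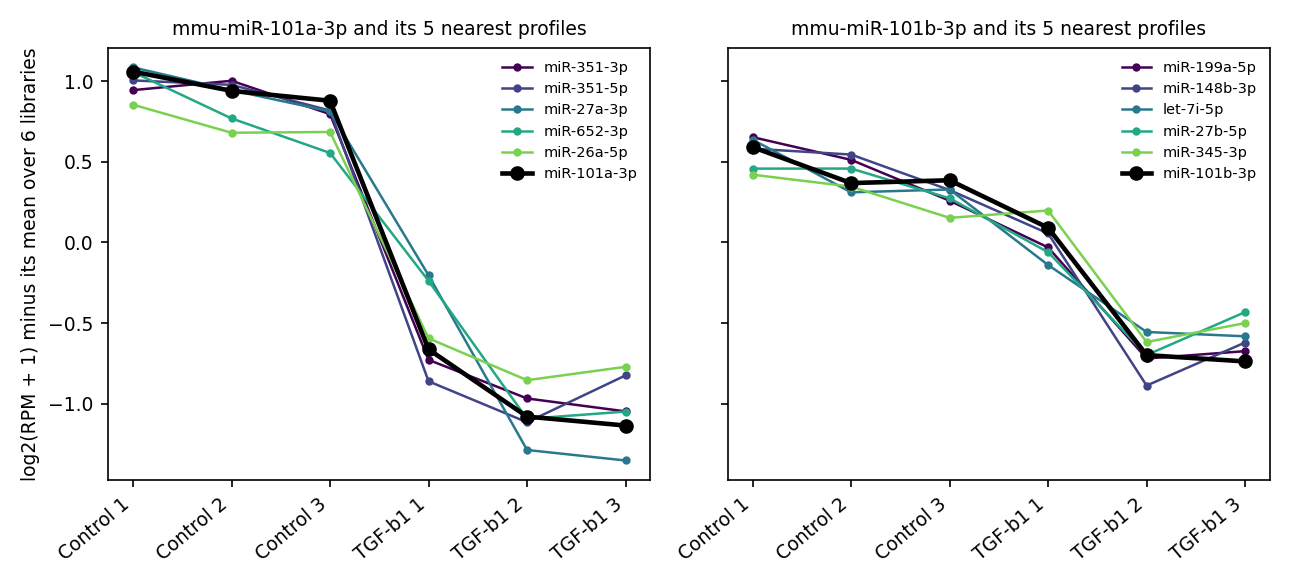
Level of each guide (black) and of the 5 miRNAs with the nearest profile (colours) by library, as log2(RPM + 1) minus the miRNA's own mean over the 6 libraries; the lines only join the points of a miRNA. The miR-101a-3p panel drops more steeply between the groups (log2 change -1.92) than the miR-101b-3p panel (-0.90), where TGF-b1 replicate 1 stands nearest to the Control libraries.

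Pairs of miRNAs as alike as the miR-101 guides were looked up after the values of the guides were known. Among 151 miRNAs with a RefSeq sequence and a mean of at least 10 RPM, 13 other pairs differed by 1 base over an overlap of at least 18 bases. The log2 changes of their members lay 0.0256 to 1.14 apart, with a median of 0.340, and several pairs share a let-7 member. The miR-101 guides, at 1.02, were farther apart than 12 of these pairs and nearer than miR-181b-5p and miR-181d-5p, at 1.14. MiR-27a-3p and miR-27b-3p, which fell as steeply as miR-101a-3p, lay only 0.131 apart. The part of reads that match both members of a pair was not tested beyond the subtraction above.

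**Figure D5:**
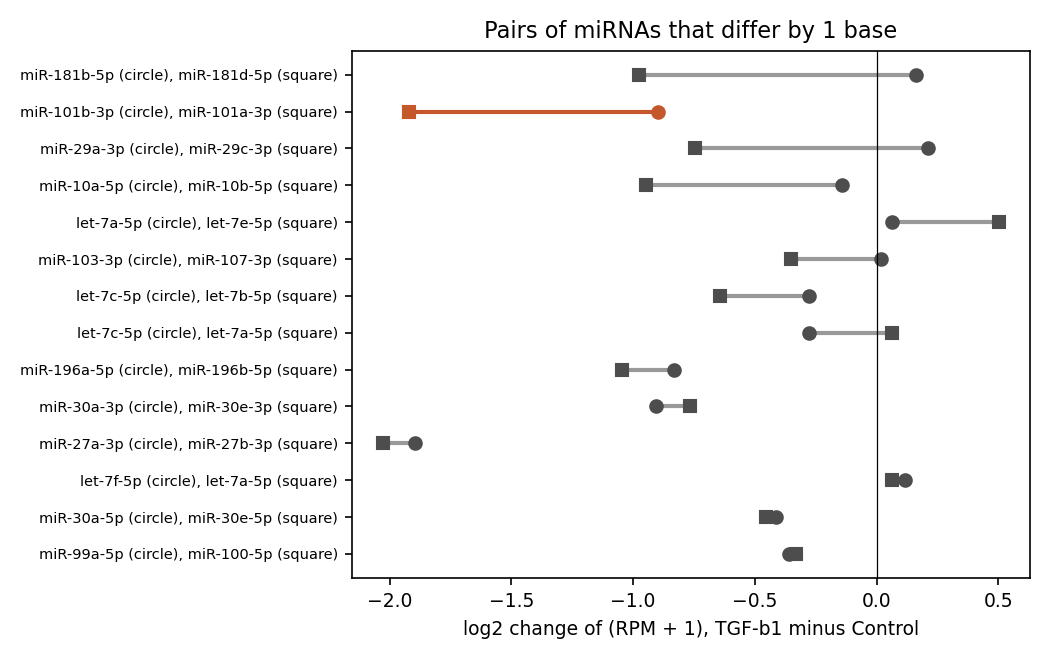
Log2 change of (RPM + 1), TGF-b1 minus Control, of the members of each pair of miRNAs that differ by 1 base; the miR-101 guides are in orange. The miR-101 line spans 1.02 and lies wholly below 0, while the widest pair, of the miR-181 family, spans 1.14 across 0.

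Ezh2 is the best-known target of the miR-101 guides, so its 3′UTR was searched for the letters complementary to their seeds. In the 267-base 3′UTR of the Ezh2 transcript with the longest coding sequence (GENCODE vM1), the sense strand held GTACTGT, which pairs with bases 2 to 8 of miR-101a-3p, at bases 59 to 65 and 114 to 120. The matches are shown in capitals with their flanks, since they are the letters complementary to the miR-101a-3p seed.
Ezh2 site 1: caggaaccttgaGTACTGTgggcaa
Ezh2 site 2: tgaatttgcaaaGTACTGTaacagt
TACTGTA, which pairs with bases 2 to 8 of the annotated miR-101b-3p, occurred once, at base 115, and overlaps the match of site 2 but not that of site 1. Among 14759 3′UTRs of at least that length, the first 267 bases held GTACTGT in 1.924% and TACTGTA in 2.249%. A match describes letters only. Ezh2 mRNA was not measured by these libraries, and the RNA sequencing of the study was not used here.

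Other miRNAs for which EZH2 is a published target were taken as a list of 16, all of them in the table and tested. By limma 1 of the 16 was called, set against 7.84% called lower and 4.41% called higher over all tested. It was miR-26a-5p, which fell to 194.5 ± 18.2 RPM from 543.6 ± 38.1 (SD, n = 3 each) by -1.48 ± 0.10 on the log2 scale, with a limma adjusted p of 4.17e-05, and which was also among the nearest profiles of miR-101a-3p. At an adjusted p under 0.05 and any fold change, 8 of the 16 were lower and 1 was higher, beside 31.9% lower and 17.4% higher over all tested. The split depended on the scaling, with 6 lower and 4 higher under TMM, beside 94 lower and 98 higher over all tested, and 3 lower and 1 higher under upper-quartile scaling, beside 73 lower and 95 higher over all tested. The median log2 change of the list was -0.24, beside -0.17 over all tested.

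MiR-25-3p fell with a log2 change of -0.86 ± 0.10 (limma adjusted p = 0.000522). MiR-26b-5p, which shares its seed with miR-26a-5p, fell with -0.53 ± 0.10 (limma adjusted p = 0.00358), about as far as miR-30d-5p with -0.53 ± 0.10 (limma adjusted p = 0.00404). Under upper-quartile scaling neither miR-26b-5p (-0.21) nor miR-30d-5p (-0.22) passed the threshold, with limma adjusted p of 0.37 and 0.346. Neither passed by DESeq2 (adjusted p of 0.0912 and 0.0647). MiR-26b-5p also did not pass under median-of-ratios scaling (limma adjusted p = 0.0516). Both passed under TMM scaling, scaling by the sum of the rows, and edgeR. The brain miRNA miR-124-3p was at 1.38 ± 0.329 RPM in Control and 0.694 ± 0.298 in TGF-b1, a low level, for which -0.50 had an adjusted p of 0.0454 by limma. It did not pass under any other scaling, edgeR or DESeq2 (adjusted p of 0.083 to 0.352). The let-7 family, abundant regulators of growth and differentiation, was mixed. Let-7i-5p changed by -0.85 ± 0.13, let-7b-5p by -0.64 ± 0.03, let-7c-5p by -0.28 ± 0.02 and let-7e-5p by 0.50 ± 0.05, each past the adjusted p of 0.05, while let-7a-5p had 0.06, let-7d-5p 0.045, let-7f-5p 0.12 and let-7g-5p -0.05 and did not pass. Under TMM scaling let-7a-5p, let-7d-5p and let-7f-5p were higher, with 0.28, 0.26 and 0.33 (limma adjusted p of 0.0205, 0.0116 and 0.0115), and let-7c-5p, at -0.06, no longer passed. Under upper-quartile scaling let-7c-5p was at 0.04 and let-7b-5p at -0.33, and neither passed (limma adjusted p of 0.907 and 0.157). Let-7i-5p and let-7e-5p kept their directions and passed under every scaling run. MiR-98-5p, miR-138-5p and miR-214-3p had -0.06, -0.16 and -0.20 with limma adjusted p of 0.626, 0.37 and 0.507.

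The libraries were checked for miRNAs used as markers of cell types. All 5 mesenchymal markers, led by miR-143-3p, were present, with summed levels of 2587 to 2962 RPM in Control and 2609 to 3075 in TGF-b1. That sum is mostly miR-143-3p, and other members moved apart. MiR-145-5p rose with a log2 change of 0.92 (limma adjusted p = 0.00235), while miR-199a-5p fell with -0.95 (limma adjusted p = 0.00785) and miR-199a-3p with -0.31 (limma adjusted p = 0.0219). All 5 epithelial markers, the miR-200 family, had reads in at least 1 library. Their sum was 22.2 to 25.4 RPM in Control and 1.67 to 2.53 RPM in TGF-b1. It was thus lower in the group in which the miR-101 guides were lower. That sum was nearly all miR-200a-3p, miR-200b-3p and miR-429-3p, led by miR-200a-3p. The other members were almost absent and showed no clear fall. MiR-200c-3p was at 0.0599 RPM in Control replicate 2, 0.1116 RPM in TGF-b1 replicate 2 and 0 elsewhere. MiR-141-3p had 1 read in Control replicate 1 and 0 elsewhere. The part of these epithelial markers in the miR-101 values was not tested. The endothelial miR-126-3p was at most 0.0992 RPM in any library. Of 4 blood markers 2 were in the table, with a sum of at most 0.360 RPM. The proximal tubule markers, miR-192-5p and miR-194-5p, summed to 292.3 to 306.8 RPM in Control and 340.9 to 364.6 in TGF-b1. That sum is nearly all miR-192-5p, at 290.2 to 361.1 RPM over all libraries, while miR-194-5p was at 2.04 to 4.51 RPM. Which cells these reads came from was not tested. In bulk RNA, fewer cells of a type and less RNA in each cell cannot be told apart.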

How the data were processed

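Small RNA of 6 libraries was sequenced on an Illumina instrument. Per the study's methods, the authors removed adaptors, low-quality reads and reads under 18 nt, and matched the rest to miRBase version 17. The submitters' processing notes name Bowtie. Mismatches allowed and the counting of reads that match several miRNAs are not given in the sources used here. The deposited values are RPM (named TPM by the authors), and all of 4668 came out as whole reads within 0.002 of a read once each library total was recovered.

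The members and lists were chosen with earlier results of these data known. Values were tested on log2(RPM + 1) with limma 3.58.1 (R 4.3.3, trended prior, group as the only term), after filterByExpr of edgeR 4.0.16 with a minimum count of 10 on the recovered reads. P-values were adjusted over all 408 miRNAs by Benjamini-Hochberg. Fits were also run on simulated reads with the same dispersion for every miRNA. That setting has no library that stands apart as TGF-b1 replicate 1 does, so no result here rests on it.

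Named miRNAs are the 4 arms, for each guide the 5 miRNAs with the nearest profile, those that share bases 2 to 7, and members of the EZH2 list and, where needed, of the marker lists. Members of pairs that differ by 1 base, miR-101c and miR-503-5p were named after their values were seen. Alternatives were other scalings, pseudocounts of 0.1 and 10, other filters, edgeR and DESeq2 1.42.0 on the recovered reads, a replicate block, and each library left out in turn. Of the 778 names, 581 matched RefSeq. The hairpin sequences of RefSeq equal those read from the NCBIM37 genome at the GENCODE vM1 positions, the build the study used for its RNA reads. No pair of libraries within a group agreed within sampling noise.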

Additional observations from a re-analysis of the deposited data

How the results depend on the processing

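Both guides kept their direction under every alternative run. The log2 change of miR-101a-3p, -1.92, was -1.71 with TMM and with median-of-ratios scaling, -1.60 with upper-quartile scaling and -1.70 with DESeq2, and -2.07 to -1.83 with each library left out in turn. For miR-101b-3p, -0.90, the alternatives gave -0.90 to -0.58, and -1.17 to -0.75 with a library left out, the lowest without TGF-b1 replicate 1. The change of the log2 ratio, -1.02, was -1.09 to -0.90 with a library left out. The 32 miRNAs called lower became 19 with upper-quartile scaling, 54 with a pseudocount of 0.1 and 15 with a pseudocount of 10. The 18 called higher became 30 with median-of-ratios scaling, 31 with TMM scaling, 35 with upper-quartile scaling, 32 and 2 with those pseudocounts, 45 with edgeR and 46 with DESeq2. Counts of calls on the EZH2 list at the fold limit were the same under all 17 alternatives, a check chosen after seeing the data, as were the subtraction of miR-101a-3p reads, the addition of miR-101c reads to miR-101a-3p (-1.92) and the summed guides with a library left out (-1.28 to -0.88).

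Over all tested miRNAs, libraries of equal number did not deviate together (correlations of -0.0841, -0.208 and -0.345 between deviations from the group means). Both guides, however, were highest in replicate 1 of each group. The labels do not say whether equal numbers mark pairs, and these correlations cannot settle it. With a replicate block the changes were -1.92 ± 0.11, -0.90 ± 0.13 and, for the ratio, -1.02 ± 0.10 (SE), with 32 called lower and 18 higher. The alternatives planned for the passenger arms and arm ratios were not run, because with 0 to 2 reads per library the pseudocount would set their value.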
